A study of Homo sapiens with 24 samples.

Results

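Transcript levels of 10 genes that mark or control the epithelial and mesenchymal state were followed across 24 RNA-sequencing libraries of bladder cancer cells. The genes were taken by symbol from a deposited table of 35993 genes, and all 10 were found: the cadherins CDH1 and CDH2, the cytoskeletal and matrix genes VIM and FN1, and the transcription factors ZEB1, ZEB2, SNAI1, SNAI2, TWIST1 and GRHL2. The libraries came from J82 and RT-112, 2 established human bladder cancer cell lines. Each gave 4 groups of 3 samples, called biological replicates in the series' design text: unmodified parental cells, and lines set up from them with low CD44 (CD44 Low), high CD44 (CD44 High) or high CD44v6 (CD44v6). CD44 is a receptor for hyaluronan on the cell surface, and CD44v6 names its splice forms with variant exon v6. The sources used here do not say how the derived lines were obtained, and they name 1 line of each kind per parent. P-values therefore measure the spread between the samples of a line, and whether these came from separate cultures is not given in the sources used here.

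Epithelial cells hold together through junctions built on E-cadherin, the product of CDH1. In epithelial-mesenchymal transition these junctions are taken apart, N-cadherin (CDH2), vimentin (VIM) and fibronectin (FN1) become prominent, and cells gain motility. Factors of the ZEB, SNAI and TWIST families repress CDH1 or drive the mesenchymal programme, while GRHL2 sustains junction genes and opposes ZEB1. The miR-200 microRNAs repress ZEB1 and ZEB2 through sites in their 3′ untranslated regions (3′UTRs), and both ZEB factors in turn repress the miR-200 genes.

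The sequences of that loop are shown because ZEB1, ZEB2 and a miR-200 host transcript differ between the groups below. The mature microRNAs (RefSeq, GRCh38.p14) are given 5′ to 3′ with the seed, bases 2 to 8, in capitals, and fall into 2 seed classes. The first class pairs with CAGTATT in a transcript:
hsa-miR-200b-3p: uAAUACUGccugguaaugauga
hsa-miR-200c-3p: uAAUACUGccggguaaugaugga
hsa-miR-429: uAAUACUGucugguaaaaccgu
The second class pairs with CAGTGTT:
hsa-miR-200a-3p: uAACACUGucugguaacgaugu
hsa-miR-141-3p: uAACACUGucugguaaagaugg

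The 3′UTRs of ZEB1 and ZEB2 were read from GENCODE 29 (GRCh38, transcript with the longest coding sequence) and searched on the transcript strand for both heptamers. ZEB1, with 2549 bases, held 6 matches to CAGTATT and 3 to CAGTGTT. ZEB2, with 5370 bases, held 5 and 4. Of 3394 other 3′UTRs at least as long as that of ZEB1, 49.6% had a match in their first bases up to that length and 1 (0.0295%) had as many as 9. Of 806 at least as long as that of ZEB2, 74.2% had a match and 0 had as many. A match describes the letters and does not show binding. For each gene the first match of each class is shown in 29 bases, with the match in capitals:
ZEB1, chr10:31527622-31527650, plus strand: ttttatcttatCAGTATTatcactcttat
ZEB1, chr10:31528035-31528063, plus strand: atcatcagaatCAGTGTTtgtgattgtgt
ZEB2, chr2:144389042-144389070, minus strand: ctaccatacatCAGTATTtttattattat
ZEB2, chr2:144389226-144389254, minus strand: aaaattttgtaCAGTGTTaaggcctaaaa

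Libraries held 16752825 to 24419670 counts. Levels are given in CPM (a gene's share of the scaled library total, computed from the deposited counts), as mean ± SD of n = 3. As a check of the group names, CD44 was at 445, 279, 727 and 800 CPM in J82 parental, CD44 Low, CD44 High and CD44v6 cells and at 317, 141, 420 and 448 CPM in the RT-112 groups. CD44 Low was called below the other groups of its line in each line, and CD44 High (adjusted p = 0.0355) and CD44v6 (0.0214) were called above parental cells in J82. In RT-112 neither passed: CD44 High differed from parental by 0.41 on the log2 scale (adjusted p = 0.272) and CD44v6 by 0.46 (adjusted p = 0.163). Counts per gene do not separate splice forms, so the v6 label itself was not checked. Of 12 urothelial markers, 11 were above 1 CPM on average in RT-112 and 6 in J82, where 3 were at 0 in every library. Of 4 leukocyte markers 2 were at 0 in each line, and the list summed to at most 0.162 CPM in J82 and 0.729 CPM in RT-112. The 3 endothelial markers summed to at most 1.84 and 4.19 CPM.

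The parental cells were compared to ask where each line stands on the epithelial to mesenchymal scale. J82 carried the mesenchymal set and RT-112 the epithelial set, with FN1 and SNAI2 as the exceptions to that split. In parental J82, CDH2 was at 288 ± 32.1 CPM, VIM at 368 ± 12.1, ZEB1 at 81.6 ± 3.33, ZEB2 at 164 ± 5.40 and TWIST1 at 6.60 ± 0.176. In parental RT-112 the same genes were at 6.98 ± 1.03, 1.88 ± 0.435, 1.02 ± 0.301, 0.0929 ± 0.161 and 0 CPM. CDH1 went the other way, at 2.54 ± 0.231 CPM in J82 and 317 ± 20.9 in RT-112. GRHL2 had no count in any of the 12 J82 libraries and stood at 263 ± 10.5 CPM in parental RT-112.

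Against RT-112, parental J82 differed on the log2 scale by -6.97 (SE 0.12) for CDH1, 5.36 (SE 0.18) for CDH2, 7.60 (SE 0.35) for VIM and 6.33 (SE 0.29) for ZEB1. The adjusted p-values of these 4 genes ran from 2.82e-20 to 3.69e-14. ZEB2 was also called (log2 fold change 10.61, adjusted p = 3.38e-14), but its RT-112 parental libraries held 0, 0 and 6 counts. For genes without a count the fold is a bound, set against 3 counts per library: GRHL2 was at least 1731-fold higher in parental RT-112, and TWIST1 at least 44.3-fold higher in parental J82. In all, 8 of the 10 genes passed an adjusted p of 0.05, as did 62.0% of the 17438 genes tested in that fit. The share for all genes is so high that the count by itself marks little.

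FN1 and SNAI2 did not follow the other mesenchymal genes. Parental J82 had 327 ± 51.9 CPM of FN1 and parental RT-112 had 321 ± 37.4, a log2 difference of 0.03 (SE 0.25, adjusted p = 0.934). SNAI2, which encodes the CDH1 repressor SLUG, was lower in J82 (25.9 ± 2.82 CPM) than in RT-112 (132 ± 4.35 CPM), by -2.35 on the log2 scale (SE 0.17, adjusted p = 9.4e-11). SNAI1, which encodes SNAIL, was close to undetected: it held 0 to 5 counts per library in J82, with 10 of 12 libraries at 0, and 0 to 15 in RT-112. SNAI1 was not called between the parental lines (adjusted p = 0.294) or in any comparison within RT-112. There CD44 Low against parental gave 2.04 (SE 0.87, unadjusted p = 0.0357, adjusted p = 0.226), on 37 against 8 counts in all.

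**Figure D1:**
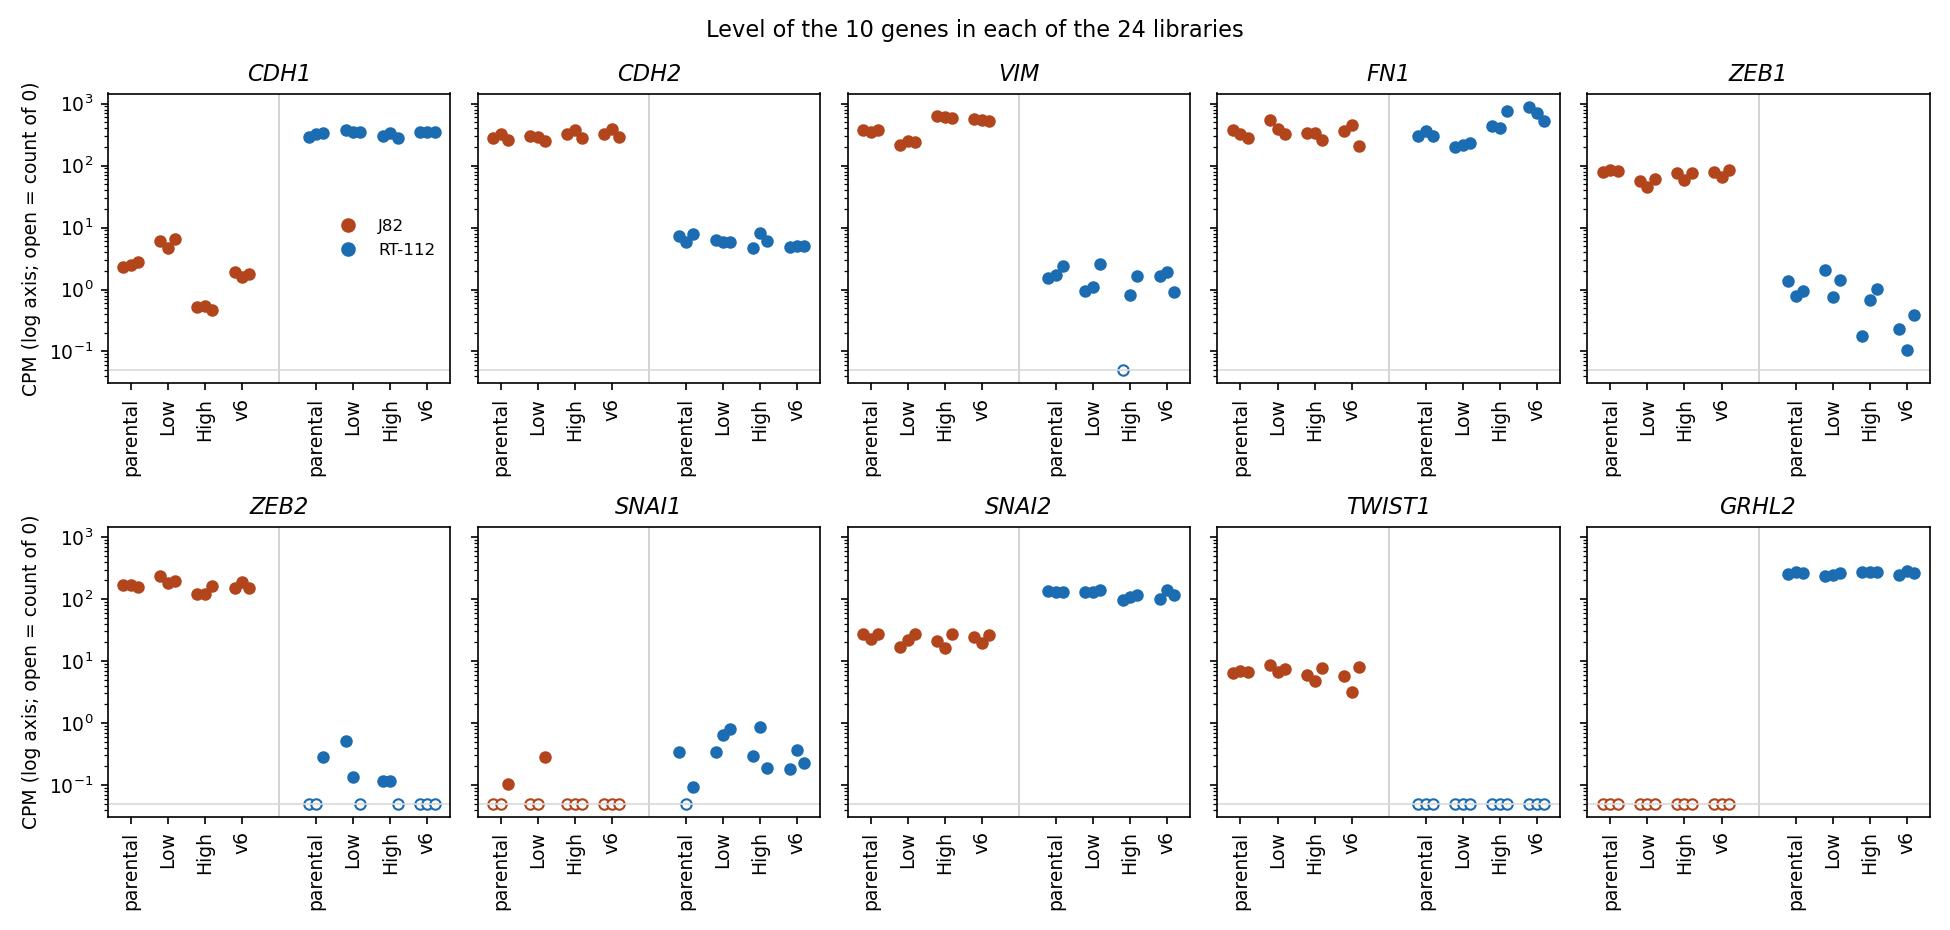
Level of each of the 10 genes in the 24 libraries, in CPM on a log axis, by group (J82 left, RT-112 right in each panel); each point is 1 library and open points at the bottom line are libraries with a count of 0. CDH1 and GRHL2 are high in RT-112, CDH2, VIM, ZEB1, ZEB2 and TWIST1 are high in J82, FN1 is high in both, and SNAI1 is near 0 throughout.

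Levels of different genes can be set side by side only per transcript length, so mean CPM over the 12 libraries of a line was divided by the length of the GENCODE transcript in kilobases. In J82 the order was VIM (204 CPM per kilobase), CDH2 (71.2), FN1 (39.2), ZEB2 (17.4), ZEB1 (11.8), SNAI2 (9.58), TWIST1 (3.89) and CDH1 (0.539). In RT-112 the means were 68.1 CPM per kilobase for CDH1, 50.7 for SNAI2, 50.1 for GRHL2 and 49.8 for FN1. The place of FN1 depended on the group: its level per kilobase ran from 24.04 in CD44 Low to 79.3 in CD44v6, where CDH1 was at 71.5. CDH2 (1.40), VIM (0.667), SNAI1 (0.214), ZEB1 (0.138) and ZEB2 (0.0101) closed the order. SNAI2 was therefore the most abundant of the SNAI, ZEB and TWIST factors in RT-112, beside a high level of CDH1.

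Within J82, the question was whether the 10 genes differ between the CD44-defined lines. CDH1 and VIM moved in opposite directions along them: CD44 Low cells had the highest CDH1 and the lowest VIM, and CD44 High cells the lowest CDH1 and the highest VIM. CDH1, the E-cadherin gene, stood at 2.31, 2.52 and 2.78 CPM in the 3 parental libraries and at 5.96, 4.70 and 6.47 CPM in CD44 Low. It stood at 0.516, 0.539 and 0.470 CPM in CD44 High and at 1.94, 1.61 and 1.75 CPM in CD44v6. The 4 groups did not overlap, though not every pair of them was called. The share of all genes without such overlap is not given here. These are low levels, resting on 87 to 113 counts per library in CD44 Low and 9 to 12 in CD44 High.

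From CD44 Low to CD44 High, CDH1 changed by -3.47 on the log2 scale (SE 0.26, adjusted p = 1.89e-06). Against parental cells the change was -2.30 in CD44 High (SE 0.26, adjusted p = 0.000826) and 1.17 in CD44 Low (SE 0.23, adjusted p = 0.0101). The last call was lost without parental replicate 1 (adjusted p = 0.0611) or parental replicate 2 (0.0555). CD44v6 against CD44 Low gave -1.68 (SE 0.23, adjusted p = 0.000481). Neighbours in the order were not all separated: CD44v6 against parental gave -0.51 (SE 0.23, adjusted p = 0.245), and CD44v6 against CD44 High gave 1.78 (SE 0.26, adjusted p = 0.105). The latter difference was called in the fit over all 24 libraries (adjusted p = 0.000101), where CDH1 in RT-112 shares the estimate of the spread.

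Even the highest J82 group stayed far below RT-112: CDH1 in CD44 Low was at 1.80% of the parental RT-112 level, and in CD44 High at 0.160%. For comparison, 49 genes at 100 CPM or more in every parental RT-112 library and at 2 CPM or less in every parental J82 library were summed. The choice itself makes their level in parental J82 low. Their sum in J82 was 0.0625% of the RT-112 parental sum in parental cells, 0.0778% in CD44 Low, 0.0929% in CD44 High and 0.116% in CD44v6. Of the 11 such genes tested in J82, CD44 High against CD44 Low called 2 higher and 0 lower. Over all genes in that comparison, 8.83% were called higher and 6.90% lower.

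VIM, the intermediate filament gene used as a mesenchymal marker, had 378, 354 and 371 CPM in parental J82 and 211, 246 and 236 CPM in CD44 Low. It had 622, 609 and 587 CPM in CD44 High and 556, 534 and 522 CPM in CD44v6. Again no groups overlapped, a trait for which the share of all genes is not given here. The spread within each group was small. VIM exceeded its CD44 Low level by 1.40 on the log2 scale in CD44 High (SE 0.08, adjusted p = 2.89e-07) and by 1.22 in CD44v6 (SE 0.08, adjusted p = 1.37e-06).

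Against parental cells, VIM changed by -0.67 in CD44 Low (adjusted p = 0.000335), 0.72 in CD44 High (adjusted p = 0.000674) and 0.55 in CD44v6 (adjusted p = 0.00425) on the log2 scale. Each of these 3 calls was lost in the fit over all 24 libraries, where VIM in RT-112 shares the estimate of the spread (adjusted p = 0.107, 0.124 and 0.208). CD44 High and CD44v6 were not separated (-0.17, SE 0.08, adjusted p = 0.517). VIM-AS1, which GENCODE 29 places on the opposite strand over VIM, had 3.80 to 8.89 CPM as group means in J82. Whether counting used strand is not given in the sources used here.

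**Figure D2:**
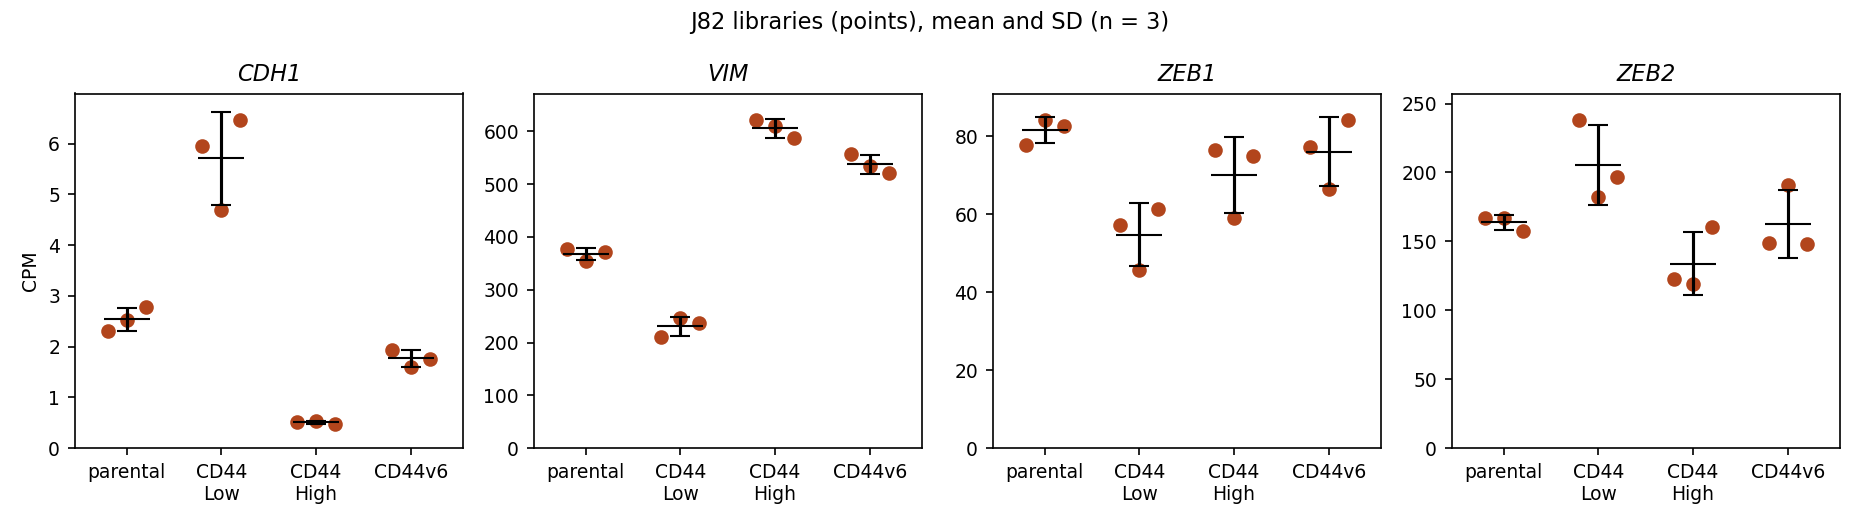
CDH1, VIM, ZEB1 and ZEB2 in J82, in CPM on linear axes from 0; points are libraries, the wide bar is the group mean and the error bar the SD (n = 3). CDH1 is highest and VIM lowest in CD44 Low, and the reverse holds in CD44 High, while the groups of ZEB1 and ZEB2 lie closer together.

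The ZEB factors, repressors of CDH1, differed less. ZEB1 stood at 77.9, 84.3 and 82.7 CPM in parental J82, at 57.2, 45.8 and 61.3 in CD44 Low, at 76.5, 59.0 and 75.1 in CD44 High and at 77.4, 66.6 and 84.2 in CD44v6. From parental cells to CD44 Low it changed by -0.58 (SE 0.13, adjusted p = 0.0249), and from CD44 Low to CD44v6 by 0.48 (SE 0.13, adjusted p = 0.0385). Both calls were fragile. The first held in 1 of 6 fits that left out a library, with adjusted p up to 0.104, and the second in 2 of 6, with adjusted p up to 0.145. The fit over all 24 libraries called neither (adjusted p = 0.0953 and 0.161). CD44 High against CD44 Low gave 0.36 (SE 0.13, adjusted p = 0.0822), with overlapping groups, and was called with a replicate block (adjusted p = 0.0342). The labels do not pair the samples by number. Deviations of libraries with the same number correlated at 0.04, 0.11 and 0.23 there, not all above 0.1.

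For ZEB2, CD44 Low had the highest mean and CD44 High the lowest. Its CD44 Low libraries held 238, 182 and 197 CPM, the parental ones 167, 167 and 158, the CD44v6 ones 149, 191 and 148, and the CD44 High ones 123, 119 and 160. ZEB2 changed from CD44 Low to CD44 High by -0.62 (SE 0.14, adjusted p = 0.00936). This call held in 3 of 6 fits that left out a library, and the other 3 lay at adjusted p of 0.0501 to 0.0503. It was also lost in the fit over all 24 libraries (adjusted p = 0.0608). ZEB2 and CDH1 both had lower means in CD44 High than in CD44 Low cells, and a link between them was not tested.

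The remaining genes tested in J82 passed in none of the 6 comparisons. CDH2, which encodes N-cadherin, had group means of 280 to 338 CPM, FN1 of 311 to 422, SNAI2 of 21.4 to 25.9 and TWIST1 of 5.60 to 7.52. For CD44 High against CD44 Low the log2 fold changes were 0.23 (SE 0.14) for CDH2, -0.43 (SE 0.24) for FN1, -0.04 (SE 0.20) for SNAI2 and -0.27 (SE 0.27) for TWIST1. Their libraries overlapped between these groups. The fall of CDH1 in CD44 High was therefore not accompanied by a called rise of CDH2.

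Of the 8 genes tested in J82, 3 were called in CD44 Low against parental cells (CDH1, VIM and ZEB1; 5.34% of all genes were called), 2 in CD44 High against parental (CDH1 and VIM; 2.94%) and 1 in CD44v6 against parental (VIM; 2.60%). The CD44 High against CD44 Low comparison called 3 (CDH1, VIM and ZEB2; 15.7%) and that of CD44v6 with CD44 Low called 3 (CDH1, VIM and ZEB1; 9.58%). These comparisons share groups and are not independent of each other. In CD44v6 against CD44 High edgeR called 0 of 15951 genes (0%). There 1536 genes had an unadjusted p under 0.05, CDH1 and VIM among them, and DESeq2 called 74 genes. It called none of the members to which it gave an adjusted p, and it gave none to CDH1, SNAI2 and TWIST1. A list of 6 fibroblast and muscle markers, 1 of them at 0 in all J82 libraries and 3 above 1 CPM on average, moved with the groups too. It summed to 91.1 to 123 CPM in CD44 Low, 51.5 to 61.9 in parental, 42.6 to 48.5 in CD44 High and 35.3 to 58.8 in CD44v6. Its part in the results was not tested.

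RT-112 showed another pattern. FN1, the fibronectin gene, was the abundant gene that varied, while CDH1 and GRHL2 stayed high and VIM stayed near its lower limit of detection in every group. FN1 stood at 304, 364 and 296 CPM in the parental libraries and at 197, 212 and 234 CPM in CD44 Low. It stood at 433, 409 and 760 CPM in CD44 High and at 892, 709 and 518 CPM in CD44v6. All CD44 High and CD44v6 libraries were above all parental and CD44 Low libraries. The share of all genes separated in this way is not given here. Replicate 3 of CD44 High lay well above replicates 1 and 2.

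From CD44 Low to CD44 High, FN1 rose by 1.35 on the log2 scale (SE 0.23, adjusted p = 0.0025). Without CD44 High replicate 3 the difference was 1.002 (adjusted p = 0.00209). Its rise from CD44 Low to CD44v6 was 1.71 (SE 0.23, adjusted p = 0.000673). Against parental cells FN1 did not pass: the values were -0.62 (SE 0.23, adjusted p = 0.162) in CD44 Low, 0.74 (SE 0.23, adjusted p = 0.200) in CD44 High and 1.09 (SE 0.23, adjusted p = 0.0521) in CD44v6. The CD44v6 value lay at the threshold and was called under 5 of the other settings, among them DESeq2 (adjusted p = 0.000183), and without CD44v6 replicate 3 (adjusted p = 0.0345). CD44v6 and CD44 High were not separated (0.36, SE 0.23, adjusted p = 1).

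**Figure D3:**
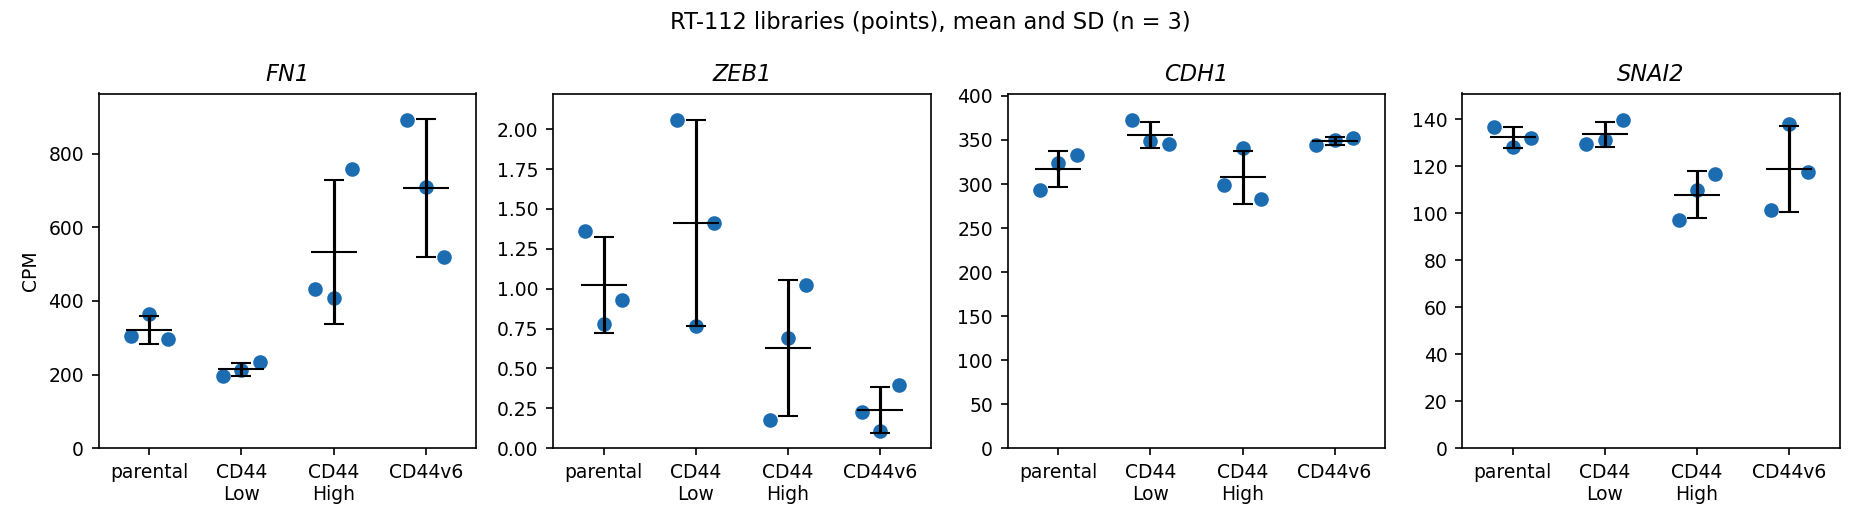
FN1, ZEB1, CDH1 and SNAI2 in RT-112, in CPM on linear axes from 0; points are libraries, the wide bar is the group mean and the error bar the SD (n = 3). FN1 is lowest in CD44 Low, and all CD44 High and CD44v6 libraries lie above the parental ones. ZEB1 stays at or below 2.06 CPM, CDH1 runs from 283 to 373 CPM and SNAI2 from 96.9 to 140.

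ZEB1 was present at a trace in RT-112. Its libraries held 24, 17 and 20 counts in parental cells, 48, 17 and 26 in CD44 Low, 3, 12 and 22 in CD44 High and 5, 2 and 7 in CD44v6. From CD44 Low to CD44v6 ZEB1 changed by -2.54 (SE 0.64, adjusted p = 0.0193), and the call was lost in 3 of 6 fits that left out a library, with adjusted p up to 0.0791. In level, ZEB1 in RT-112 ran from 0.296% of the parental J82 level in CD44v6 to 1.73% in CD44 Low. Summed over 39 genes specific to J82 by the same limits, RT-112 groups were at 0.102% to 0.141% of parental J82, with CD44 High highest. ZEB1-AS1, on the opposite strand, had 0.472 (CD44v6) to 1.51 CPM (parental) as group means. ZEB1 itself had 0.242 (CD44v6) to 1.41 CPM (CD44 Low). Whether counting used strand is not given in the sources used here, and whether ZEB1 counts hold reads of ZEB1-AS1 was not tested.

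A transcript of the repressing side of the loop was measured, although microRNAs themselves were not. MIR200CHG, a host transcript of miR-200c and miR-141 that belongs to the list of epithelial regulators, was at 5.34 ± 0.627 CPM in parental RT-112, 7.37 ± 2.03 in CD44 Low, 4.10 ± 0.626 in CD44 High and 3.63 ± 0.438 in CD44v6. It changed from CD44 Low to CD44v6 by -1.03 (SE 0.22, adjusted p = 0.00841), in the comparison in which ZEB1 was also lower. In J82, MIR200CHG had 2 counts in 1 library and 0 in the other 11. MIR205HG, the miR-205 host, had 0 counts in J82 and 59.3 to 126 CPM in RT-112.

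With all 12 libraries in the fit, CDH1, GRHL2 and SNAI2 were called in no comparison within RT-112. CDH1 ran from 283 to 373 CPM over the 12 libraries, GRHL2, which keeps junction genes active, from 234 to 284, and SNAI2 from 96.9 to 140. For CD44 High against CD44 Low the log2 fold changes were -0.18 (SE 0.07, adjusted p = 0.123) for CDH1, 0.17 (SE 0.08, adjusted p = 0.157) for GRHL2 and -0.28 (SE 0.11, adjusted p = 0.0999) for SNAI2. None of these 3 passed, in a comparison that called 16.0% of all genes. Their libraries did not overlap between these groups, and their unadjusted p in edgeR was 0.0328, 0.0478 and 0.0237. The shares of all genes by these other criteria are not given here. Without CD44 High replicate 2 the CDH1 difference was -0.25 (adjusted p = 0.0369).

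CDH2, VIM, ZEB2 and TWIST1 stayed low in RT-112. CDH2 ran from 4.64 to 8.04 CPM and VIM from 0 to 2.55 CPM. VIM held 0, 14 and 35 counts in CD44 High, a spread as wide as its mean (0.810 ± 0.813 CPM). In that group 113 genes had a count of 0 in 1 library although their counts summed to at least 30. ZEB2 held 0 to 12 counts, with 7 of 12 libraries at 0, and TWIST1 had 0 in all 12.

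Of the 8 genes tested in RT-112, edgeR called 0 against parental cells in CD44 Low (3.20% of all genes were called), 0 in CD44 High (0.511%) and 0 in CD44v6 (0.614%). At an unadjusted p under 0.05 there were 2, 2 and 3. DESeq2 called 0, 0 and 1, with no adjusted p for VIM, ZEB1 and SNAI1 in the last. The percentages are for edgeR at adjusted p, and the shares of all genes by these other criteria are not given here. One gene was called in CD44 High against CD44 Low (FN1; 16.0%) and 2 in CD44v6 against CD44 Low (FN1 and ZEB1; 16.0%). In CD44v6 against CD44 High 0 genes were called (0%), 665 had an unadjusted p under 0.05, none of the 10 among them, and DESeq2 called 2 genes and 0 of the 10. The 6 fibroblast and muscle markers, 1 at 0 in all RT-112 libraries and 2 above 1 CPM, summed to 215 to 272 CPM in CD44 Low, 164 to 198 in parental, 120 to 184 in CD44 High and 127 to 183 in CD44v6. Their part in the results was not tested.

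Whether a difference between groups was itself unlike in the 2 lines was tested as an interaction (the J82 difference minus the RT-112 difference) for the 6 genes that passed the count filter in each line. In the comparison of CD44 High with CD44 Low, 4 of 6 were called, against 10.7% of all genes. CDH1 gave -3.26 (SE 0.19, adjusted p = 1.11e-09) and FN1 -1.76 (SE 0.36, adjusted p = 0.00309). In this fit CDH1 in RT-112, at far higher counts, shares the estimate of the spread. For the same comparison in the fit of J82 alone, the SE of CDH1 was already 0.26. The p-values of CDH1 in the interactions therefore rest on that shared spread. VIM gave 2.16 (SE 0.54, adjusted p = 0.0122) and ZEB1 1.46 (SE 0.45, adjusted p = 0.0388). The VIM call was lost without RT-112 CD44 Low replicate 3 (adjusted p = 0.0726), and the ZEB1 call in 8 of 12 fits that left out a library, with adjusted p up to 0.194.

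For CD44v6 against CD44 Low, CDH1 (-1.65, SE 0.16, adjusted p = 1.44e-06), FN1 (-2.05, SE 0.36, adjusted p = 0.00112) and ZEB1 (3.02, SE 0.53, adjusted p = 0.001) were called, 3 of 6 against 7.52% of all genes. In that comparison ZEB1 was called higher in J82 and lower in RT-112. CDH1 alone was called in CD44 Low against parental (1.005; 1.06% of all genes were called), in CD44 High against parental (-2.25; 0.241%) and in CD44v6 against CD44 High (1.61; 0.00573%). In CD44v6 against parental edgeR called 0 of 6 (0.138% of all genes). There 4 had an unadjusted p under 0.05, a criterion for which the share of all genes is not given here. DESeq2 called 2 of the 6, and 463 over all genes. CDH2 and SNAI2 were called in none of the 6 interactions by edgeR.

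**Figure D4:**
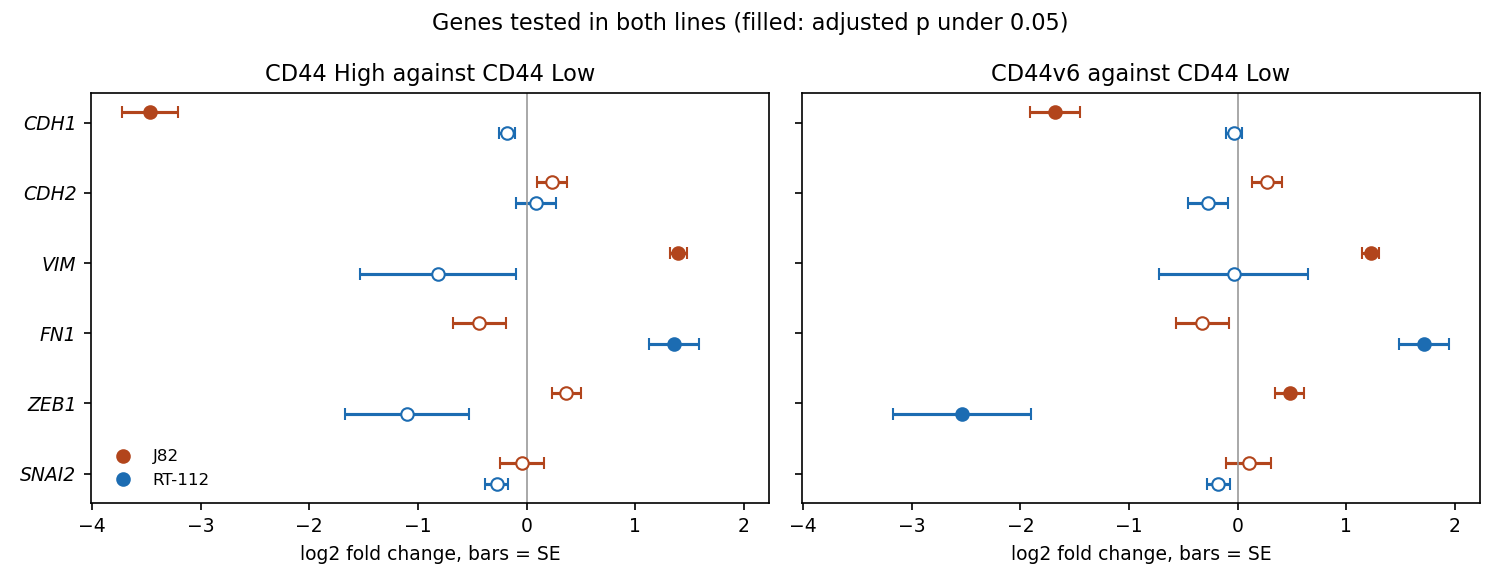
Log2 fold change with its SE (bars) for 6 genes in the 2 lines, CD44 High against CD44 Low (left) and CD44v6 against CD44 Low (right); filled points have an adjusted p under 0.05. CDH1 and VIM are called in J82 and FN1 in RT-112 in both comparisons, and the wide bars of VIM and ZEB1 in RT-112 go with their low counts.

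Other genes of the same biology, in 4 lists, were read in CD44 High against CD44 Low. The junction and adhesion list (30 genes) had 1 gene higher and 3 lower of 23 tested in J82, with a median log2 fold change of 0.09, against -0.02 over all genes. PPL, which encodes the desmosomal plakin periplakin, was at 7.34 ± 1.89 CPM in CD44 High and 13.7 ± 1.69 in CD44 Low (-0.90, adjusted p = 0.0157). PKP2, a desmosomal plakophilin gene, changed by -0.60 (adjusted p = 0.000583). The third lower gene was OCLN, the occludin gene (-0.35, adjusted p = 0.0172), which falls outside the naming rule. The change of CDH1 in J82 was larger than that of any of these 3.

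In RT-112 the junction list had 7 genes higher and 4 lower of 30 tested, with a median of 0.11 against 0.02 over all genes. The tight-junction gene TJP3 was at 7.998 ± 1.18 CPM in CD44 High and 36.8 ± 12.4 in CD44 Low (-2.17, adjusted p = 0.000122). NECTIN4, for an adhesion protein of urothelium, changed by -0.95 (adjusted p = 0.00273). The claudin gene CLDN1 (0.89, adjusted p = 0.00122) and the desmocollin gene DSC2 (0.92, adjusted p = 0.00108) were higher. Junction genes thus moved both ways in RT-112 while CDH1 was not called.

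Of 20 epithelial regulators, 7 were tested in J82, with 1 higher and 0 lower (median -0.13), and 20 in RT-112, with 2 higher and 3 lower (median -0.10). ESRP1, a splicing regulator of epithelial cells, had 0 counts in J82 and 200 to 255 CPM in RT-112, where it was not called. In J82 the gene called was SPINT2, for a serine protease inhibitor, at 14.9 ± 1.67 CPM in CD44 High and 5.49 ± 0.755 in CD44 Low (1.44, adjusted p = 0.000129). In RT-112 GRHL1 (-0.52, adjusted p = 0.0118), a relative of GRHL2, and SPINT1 (-0.50, adjusted p = 0.0221) were lower. TP63 (0.70, adjusted p = 0.0012), which encodes the basal-cell factor p63, and TFAP2A (0.93, adjusted p = 0.00448) were higher. The third lower gene was MIR200CHG (-0.81, adjusted p = 0.0221), which falls outside the naming rule.

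Mesenchymal effectors (34 genes) were higher more often than lower in each line: 10 higher and 2 lower of 29 tested in J82 (median 0.32), and 7 higher and 1 lower of 20 in RT-112 (median 0.08). Over all genes, 8.83% were called higher and 6.90% lower in J82, and 9.01% and 7.02% in RT-112. TGFBI, for a secreted matrix protein, was called higher in both lines. It stood at 147 ± 30.1 CPM in CD44 High and 26.4 ± 2.70 in CD44 Low in J82 (2.49, adjusted p = 8.4e-07) and at 294 ± 51.0 and 235 ± 11.2 in RT-112 (0.35, adjusted p = 0.0258). CAVIN1, a caveolar coat gene, was also called higher in both (0.62, adjusted p = 0.000303 in J82; 1.70, adjusted p = 0.00044 in RT-112).

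DPYSL3, for a cytoskeletal regulator, was higher in J82 (1.31, adjusted p = 7.19e-05), while the actin-binding gene CALD1 was lower, at 366 ± 59.4 CPM in CD44 High and 967 ± 116 in CD44 Low (-1.40, adjusted p = 9.44e-05). The receptor gene PDGFRB was lower in J82 as well (-1.20, adjusted p = 0.0248). In RT-112 the receptor tyrosine kinase gene AXL was at 58.6 ± 19.8 CPM in CD44 High and 15.6 ± 6.28 in CD44 Low (1.94, adjusted p = 0.00247). The single lower gene there, ACTA2 (-1.14, adjusted p = 0.027), is named outside the rule. The moesin gene MSN was called higher in both lines, in J82 at 500 ± 38.7 CPM in CD44 High and 387 ± 15.6 in CD44 Low (0.38, adjusted p = 0.0217). Its fitted value was the largest of the list in RT-112 (adjusted p = 0.0135), but rested on 20, 34 and 5 counts in CD44 High and 0 in each CD44 Low library, so its size depends on the fit; with MSN at the bound that 3 counts per library allow, the list's median was again 0.08.

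The last list, other transcription factors of the transition (24 genes), had 5 higher and 2 lower of 18 tested in J82 (median -0.11) and 5 higher and 2 lower of 17 in RT-112 (median 0.20). In J82 ETS1 was at 182 ± 0.319 CPM in CD44 High and 82.6 ± 2.99 in CD44 Low (1.15, adjusted p = 2.59e-06), ID1 was higher (1.02, adjusted p = 0.00629) and SOX4 lower (-0.81, adjusted p = 0.00227). In RT-112 TBX3 was lower (-0.71, adjusted p = 0.00354) and FOXQ1 higher (0.51, adjusted p = 0.0333). FOXQ1 went the other way in J82, at 0.761 ± 0.234 CPM in CD44 High and 3.78 ± 1.07 in CD44 Low (-2.29, adjusted p = 0.000636). HMGA2, for a chromatin protein that promotes the transition, was at 24.2 ± 3.70 CPM in CD44 High and 3.60 ± 1.03 CPM in CD44 Low of RT-112 (2.80, adjusted p = 2.53e-05).

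Of the list genes, 6 were called in both lines: TGFBI, CAVIN1, MSN, HMGA2 and TNC higher in each, and FOXQ1 in opposite directions. The values of MSN, FOXQ1, HMGA2 and TNC that fall below the level limit for naming were chosen after they were seen. MIR200CHG, at an average log2 CPM of 2.38 in RT-112, is also named below that limit. HMGA2 in J82 was at 5.25 ± 1.35 CPM in CD44 High and 0.540 ± 0.319 in CD44 Low (3.28, adjusted p = 0.000208). The matrix gene TNC gave 2.37 (adjusted p = 0.00195) in J82 and 2.45 (adjusted p = 0.00268) in RT-112.

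**Figure D5:**
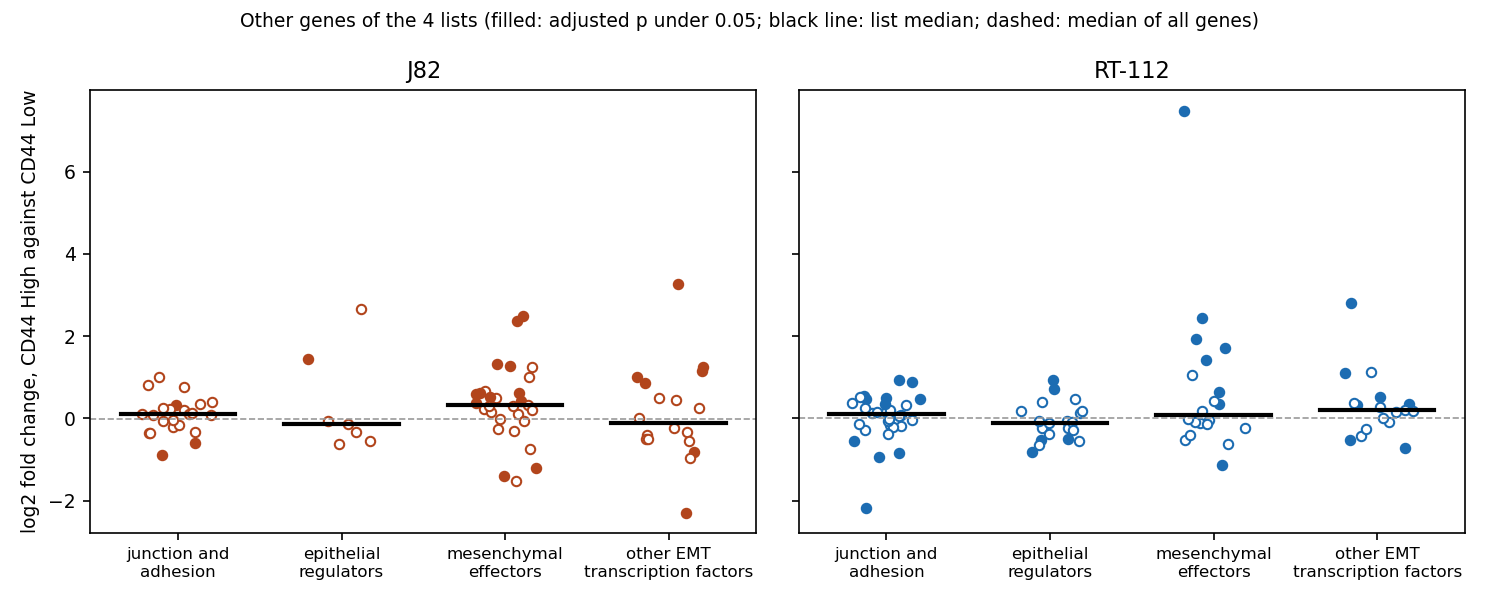
Log2 fold change of the genes of the 4 lists in CD44 High against CD44 Low, in J82 (left) and RT-112 (right); each point is a gene, filled where its adjusted p is under 0.05, the black line is the list's median and the dashed line the median of all genes. The medians lie between -0.13 and 0.32, and in the mesenchymal list 10 of 29 genes in J82 and 7 of 20 in RT-112 are called higher.

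For the genes called within a line at an average log2 CPM of at least 3, the 2 most alike genes were sought by Pearson correlation of log2 CPM over the 12 libraries of that line, among 9948 genes in J82 and 9889 in RT-112. For VIM in J82 they were IGFBP7 and TINAGL1 (both r = 0.99), for ZEB1 KNL1 (0.96) and H2AC8 (0.94), and for ZEB2 LENG8 (0.97) and CHD3 (0.96). For FN1 in RT-112 they were TNFAIP8L1 (0.98) and GRAMD2B (0.97). The libraries fall into 4 groups and the best of many candidates was taken, so these values are descriptions.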

How the data were processed

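RNA sequencing of 24 libraries (8 groups of 3) was deposited by the authors as 1 table of raw counts per gene symbol, with no normalization. HISAT2, StringTie and GRCh37 are named without versions or roles in the submitters' processing notes. Every column matched a sample title. The tests used edgeR 4.0.16 under R 4.3.3 (filterByExpr, TMM, quasi-likelihood F-test, two-sided), per line on its 12 libraries (15951 genes in J82, 15645 in RT-112), and over all 24 (17438 genes) for the parental lines and the interactions. P-values were adjusted by the Benjamini-Hochberg method over all genes tested, and a gene was called under 0.05. SE is the fold change divided by the root of F.

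The genes and lists were chosen with earlier results of these data known. List genes are named if called in CD44 High against CD44 Low at an average log2 CPM of at least 3: the 2 largest increases and decreases per list and line, and those called alike in both lines. The values of some list genes are not reported here, though the counts include them. Alternatives were other scalings, filters, DESeq2 1.42.0, other sets of libraries, a replicate block and leaving out each library. Replicates differed beyond sampling noise (chi-square per degree of freedom 6.42 to 63.7 over 24 pairs). Deviations of libraries with the same number correlated above 0.1 in every pair only for J82 CD44v6 against CD44 High (0.11, 0.11 and 0.25), so the pairing there comes from the data. On simulated counts of CD44 High against CD44 Low, 56% of J82 and 64% of RT-112 genes changed by a log2 fold of 1 were called, and 77% and 83% of those changed by 2. Only 100 genes of each size were changed per simulation. With the deposited counts this comparison called a far larger part of all genes (15.7% for J82, 16.0% for RT-112). The simulated shares hold for few changed genes, and sensitivity with as many changes as in the deposited counts was not tested. Sequences come from RefSeq and GENCODE 29. Figures were drawn with matplotlib 3.10.9.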

Additional observations from a re-analysis of the deposited data

Results flagged for a closer look

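The following 10 differences between groups were unlike in the 2 lines by the interaction test of edgeR (J82 minus RT-112, log2 scale). CDH1, at 0.508 to 5.71 CPM as group means in J82 and 308 to 356 in RT-112, gave 5 of them: 1.005 for CD44 Low against parental, -2.25 for CD44 High against parental, -3.26 for CD44 High against CD44 Low, -1.65 for CD44v6 against CD44 Low and 1.61 for CD44v6 against CD44 High. FN1 gave -1.76 for CD44 High against CD44 Low and -2.05 for CD44v6 against CD44 Low. ZEB1 gave 1.46 and 3.02 for the same comparisons, and VIM 2.16 for CD44 High against CD44 Low. VIM and ZEB1 rest on 0 to 51 and 2 to 48 counts per library in RT-112. CDH1 rests on 9 to 113 counts per library in J82, and its spread in that fit is shared with RT-112.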

How the results depend on the processing

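Of 142 tests of the 10 genes, 100 passed under no setting. Over the other 42, 566 alternative values kept direction and call, 34 lost the call, 15 gained it and 0 reversed. The number of genes called moved by over 1.5 times as follows, and the cause was not tested. With all 24 libraries in 1 fit it was 1 in place of 3 for J82 CD44 Low against parental, 1 in place of 2 for CD44 High against parental, 0 in place of 1 for CD44v6 against parental, and 1 in place of 0 for CD44v6 against CD44 High. By less, it was 2 in place of 3 in that fit for J82 CD44 High against CD44 Low (ZEB2 lost) and for J82 CD44v6 against CD44 Low (ZEB1 lost, as with no filter and with the 2 groups compared), and 2 to 3 for both on leaving out 1 library. In RT-112 CD44v6 against parental it was 1 in place of 0 with all 24 libraries, with median-of-ratios factors, with upper-quartile factors and with DESeq2, and 2 in the fit of the 2 groups compared, which also gave 1 in place of 0 for CD44 Low against parental. With a mean count of at least 50, which removes CDH1 in J82 and ZEB1 in RT-112, it was 1 in place of 2 for J82 CD44 High against parental and for RT-112 CD44v6 against CD44 Low. DESeq2 called 2 in place of 0 interactions for CD44v6 against parental. Leaving out 1 library gave 1 to 3 for J82 CD44 Low against parental (1 without parental replicate 1 or 2), 0 to 1 for RT-112 CD44v6 against parental (1 without CD44v6 replicate 3), 1 to 2 for RT-112 CD44 High against CD44 Low (2 without CD44 High replicate 2), 1 to 2 for RT-112 CD44v6 against CD44 Low, 1 to 2 for the interaction of CD44 High against parental (2 without RT-112 CD44 High replicate 3) and 2 to 4 for that of CD44 High against CD44 Low (2 without RT-112 CD44 Low replicate 3).

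The replicate block called 4 in place of 3 genes in J82 CD44 High against CD44 Low (ZEB1 added, log2 fold change 0.36) and changed no other call of the 10 genes. The labels do not say that the numbers pair the samples. Over all genes, the counts called depended on the setting: leaving out 1 library gave 312 to 965 for J82 CD44 Low against parental (852 in the full fit), 122 to 349 for CD44 High (469), 32 to 1120 for CD44v6 (415), 1578 to 2278 for CD44 High against CD44 Low (2508) and 1024 to 1695 for CD44v6 against CD44 Low (1528). In RT-112 the ranges were 142 to 798 (500), 18 to 196 (80), 25 to 55 (96), 1230 to 3091 (2507) and 1004 to 2239 (2504), and 0 to 431 (0) for CD44v6 against CD44 High. Other settings gave 643 to 1501, 385 to 1350 and 148 to 1061 for the 3 J82 comparisons with parental cells, 636 to 2026 for J82 CD44v6 against CD44 Low, 303 to 1126, 43 to 292 and 58 to 953 for the RT-112 comparisons with parental cells, and 1171 to 3062 for RT-112 CD44 High against CD44 Low. The block moved 500 to 303 in RT-112 CD44 Low and 96 to 58 in CD44v6 against parental cells. Over the interactions, all settings gave 97 to 536 (185), 12 to 238 (42), 3 to 463 (24), 1229 to 2582 (1858), 766 to 2095 (1312) and 1 to 395 (1), in the order of the comparisons used for J82. Depth limits SNAI1 in both lines, CDH1 in J82 (9 to 113 counts per library) and ZEB2, VIM and ZEB1 in RT-112.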
